A study of Hyacinthus orientalis with 189 samples.

Results

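'Delft Blue' is a blue-flowered cultivar of hyacinth (Hyacinthus orientalis), and its perianth was followed here at 3 points of flower opening. Stage B was the green bud, Stage C the coloured bud and Stage A full anthesis. At each stage 3 flowers were sampled, and, once the stamens and pistil had been taken out, the perianth was cut into its tube, its outer lobes and its inner lobes. Every library whose name carried the code of the cultivar was included, which gave 27 of the 189 RNA-Seq libraries of the series and 9 of its 63 flowers. The other 162 libraries came from 6 cultivars ('China Pink', 'City of Haarlem', 'Gipsy Queen', 'Jan Bos', 'Peter Stuyvesant' and 'Pink Pearl') sampled in the same way. The bulbs of all groups had been soaked in a fungicide (tetrachlorophthalonitrile), stored cold and then grown outdoors, and no treatment or transgene distinguished the groups. The labels number the flowers within a stage but do not say that they came from separate plants, so the p-values measure the spread between these flowers only. The 3 partitions of 1 flower are not independent, and the flower was therefore the unit of comparison.

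A hyacinth perianth consists of petal-like lobes fused at the base into a tube. While such an organ opens, chloroplasts are dismantled, anthocyanins are built from phenylalanine and stored in the vacuole, cells stop dividing and expand by water uptake, and volatile terpenoids and benzenoids begin to be released as scent. Delphinidin-type anthocyanins, which underlie blue colours in many flowers, need a flavonoid 3',5'-hydroxylase. As the reads had been assembled without a genome, each unigene (the longest transcript of a cluster of assembled transcripts) is given by its cluster identifier and by the protein it matched in Swiss-Prot, and roles stated for a match are those of the matched protein in other plants. Several unigenes often matched the same protein and could be fragments or near-identical copies that share reads, so that how their reads were divided among them is uncertain.

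The 27 libraries held between 12770513 and 18986099 counts (median 13718633), with between 64.06% and 74.37% of reads mapped. The outer lobes of flower 1 were the deepest library of every stage, with 18817786, 18083806 and 18986099 counts at Stages B, C and A. Their mapped shares, 72.82%, 74.07% and 74.37%, were also the highest. In the summed counts of flower 1 the outer lobes therefore weighed more than the other partitions. Reads were spread over more unigenes in the green bud, where between 146501 and 209789 unigenes were above 0, than in the coloured bud (127755 to 157858) or at anthesis (136158 to 157443). The 10 most abundant unigenes took between 2.248% and 3.796% of the counts at Stage B, between 4.44% and 6.22% at Stage C and between 4.493% and 7.143% at Stage A. Levels are given as FPKM, averaged over the 3 partitions of a flower, whereas log2 fold changes were computed from counts summed over the partitions and scaled with TMM factors, which lay between 0.8451 and 0.8702 at Stage C and between 1.357 and 1.602 at Stage B. Because of these factors the median fold change of Stage C against Stage B was 0.787 lower on the log2 scale with library totals than with TMM, and a fold change at this step exceeds the one read from FPKM by about that amount. Total RNA per cell was not measured, and in bulk tissue fewer cells of a type and less RNA per cell cannot be told apart.

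Stage C flower 1 stood apart from its group. Over 26319 unigenes its expression correlated with Stage C flowers 2 and 3 at 0.883 and 0.890, whereas those flowers correlated with each other at 0.977. Its correlation with the Stage B flowers was 0.576 to 0.617, against 0.455 to 0.498 for Stage C flowers 2 and 3. Flowers of Stage A correlated with each other at 0.940 to 0.959 and those of Stage B at 0.934 to 0.970. Some of the results of the stage comparisons are therefore also given without it, a comparison chosen after the data had been seen. The tests between tube and lobes and between cultivars were not run without this flower alone.

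The step from green to coloured bud was the larger of the 2 changes in expression. Here and below, a unigene was called different when edgeR's quasi-likelihood test gave a Benjamini-Hochberg adjusted p under 0.05 and the fold change exceeded 2 in either direction. At Stage C against Stage B 21720 unigenes were higher and 22234 lower of the 124167 tested, so that the background was 35.4% in either direction, 17.5% higher and 17.9% lower. At Stage A against Stage C 7116 were higher and 7071 lower, a background of 11.4% (5.73% and 5.69%). At Stage A against Stage B 27580 were higher and 30998 lower (47.2%, with 22.2% and 25%). The balance of directions depended on the scaling, for with library totals 10315 unigenes were higher and 50468 lower at Stage C against Stage B. Without Stage C flower 1 the counts were 21748 and 22043 at Stage C against Stage B, but 4720 and 3639 at Stage A against Stage C, where 7826 of the 14187 calls (55.2%) were shared. With 1 replicate number left out of all stages the counts ran from 12358 to 17608 higher and from 7177 to 14654 lower at Stage C against Stage B, and from 2133 to 2868 higher and from 1228 to 3487 lower at Stage A against Stage C.

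**Figure D1:**
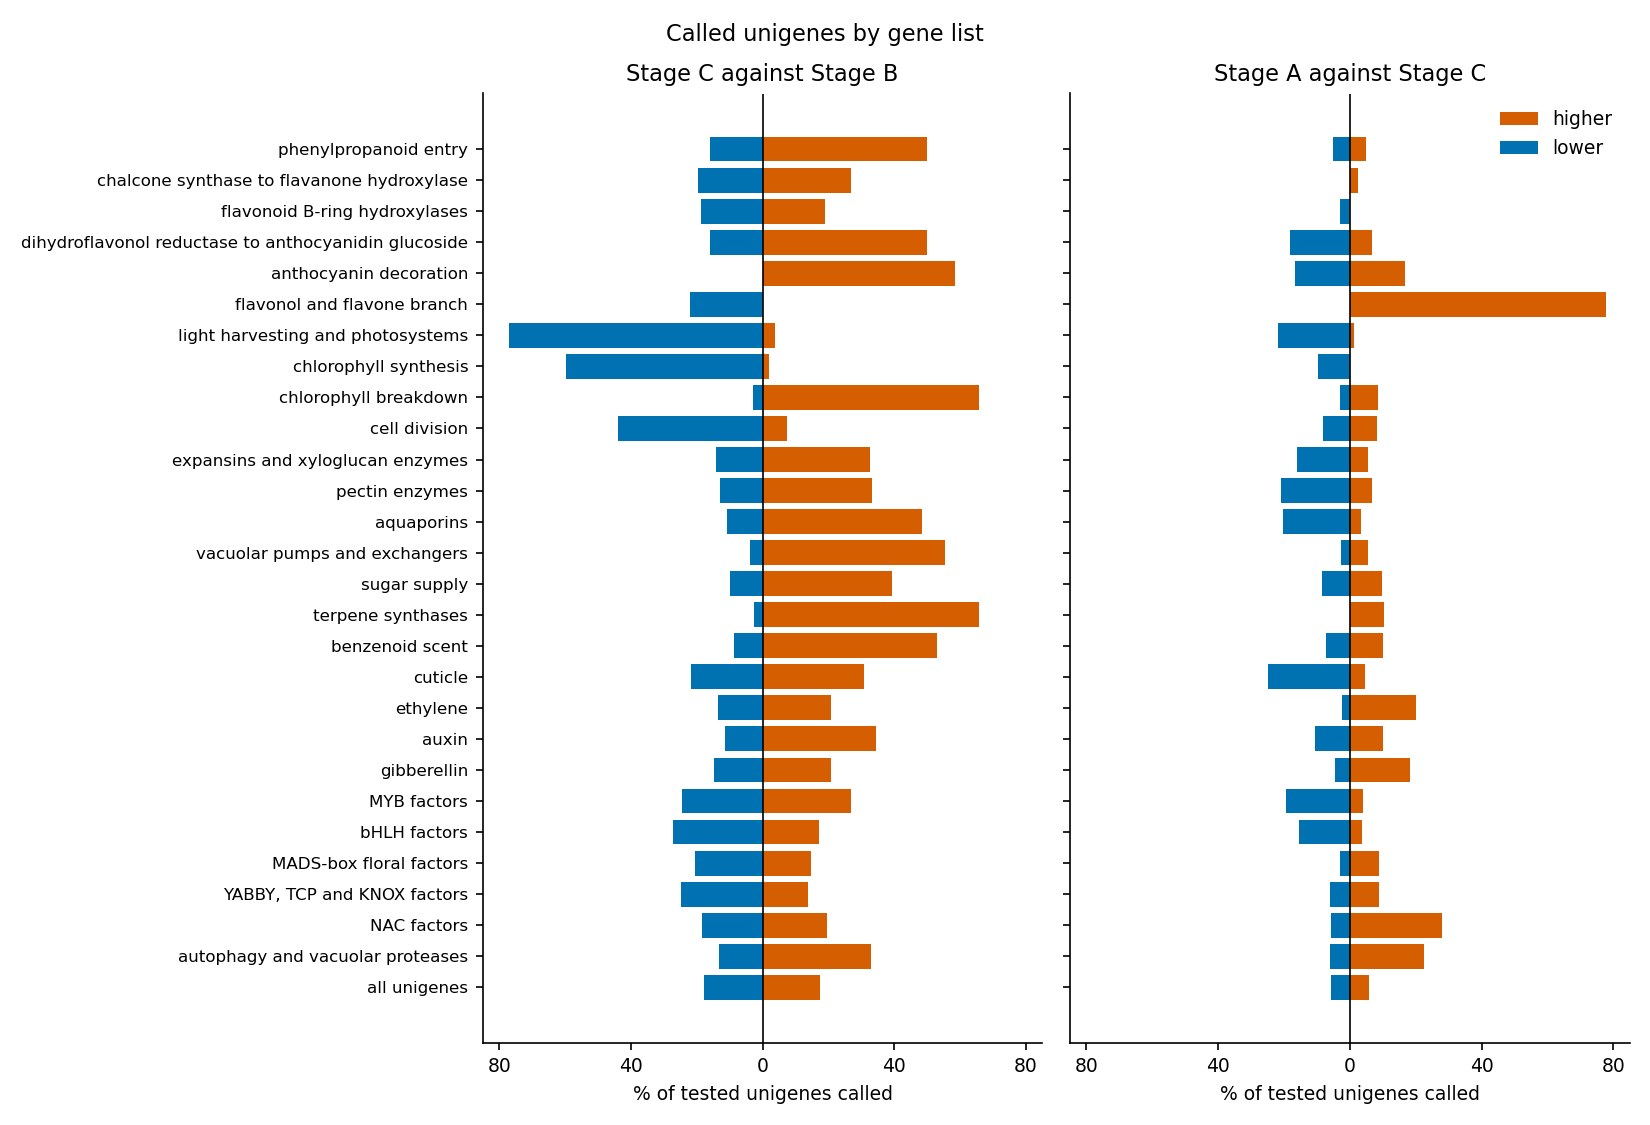
Share of the tested unigenes on each gene list, and of all 124167 tested unigenes, that were higher (to the right of 0) or lower (to the left) at Stage C against Stage B (left panel) and at Stage A against Stage C (right panel), in percent. Light harvesting stands out on the lower side at Stage C, with 121 of 157 unigenes lower, and chlorophyll breakdown, terpene synthases and anthocyanin decoration on the higher side.

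Genes that mark the perianth were present throughout. The most abundant floral MADS-box unigene (Cluster-20417.237353) matched rice MADS2, a class B factor of petal and stamen identity, and had 2145, 2625 and 2063 FPKM in the Stage B flowers, 2194, 1862 and 1826 FPKM in the Stage C flowers and 1078, 1535 and 1130 FPKM in the Stage A flowers. The class C factors, which specify stamens and carpels, reached in sum no more than 20.2 FPKM in any flower, but they were higher in the tube, with means of 31.03, 44.74 and 41.46 FPKM at Stages B, C and A, than in the lobes, where the means lay between 3.85 and 8.15 FPKM. Markers of stamen and pollen were nevertheless not at 0, although these organs had been removed. Unigenes matching the pollen-specific protein C13 of maize summed to 587, 460 and 1382 FPKM at Stage B, 1163, 848 and 1084 FPKM at Stage C and 289, 484 and 1038 FPKM at Stage A. Of the 41 tested unigenes on the stamen and pollen list, 12 were higher and 8 lower at Stage C than at Stage B, and 4 were higher and 5 lower at Stage A than at Stage C (0 lower without Stage C flower 1). Among all unigenes 17.5% were higher and 17.9% lower at the first of these steps, and 5.73% and 5.69% at the second. Unigenes whose match was to an animal protein numbered 2321 among those tested, and 670 of them were higher and 183 lower at Stage C than at Stage B (320 and 592 with library totals). The part of either source in the results was not tested.

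Several of the largest changes at colouring concerned unigenes without a single count in the green bud. A unigene matching 9-cis-epoxycarotenoid dioxygenase (Cluster-20417.332027), the enzyme that commits carotenoids to abscisic acid synthesis, was at 0 in the 3 Stage B flowers, at 1.21, 352 and 302 FPKM in the Stage C flowers and at 349, 300 and 416 FPKM in the Stage A flowers. Counted over a stage, it was at least 26900-fold higher at Stage C than the 3 counts taken as the floor for Stage B (adjusted p = 0.000947). Stage C flower 1 lay close to the green bud for this gene while the other 2 coloured buds were already at the level of anthesis. A unigene matching parsley tyrosine decarboxylase 3 (Cluster-20417.115461), of an enzyme group that acts on aromatic amino acids, was at 0 at Stage B, at 4.53, 3110 and 2794 FPKM at Stage C and at 10990, 10120 and 13320 FPKM at Stage A, and was at least 18800-fold higher at Stage C than at Stage B (adjusted p = 0.00146). The same flower again had the low value. A match of the blue-light receptor cryptochrome-1 (Cluster-20417.331348) was at 0 in the green buds, at 73.1, 514 and 477 FPKM at Stage C and at 362, 498 and 625 FPKM at Stage A, at least 11500-fold higher at Stage C (adjusted p = 2.51e-05). A CASP-like membrane protein 1C2 (Cluster-20417.126173) had 3 counts over the 3 green buds, against 519, 2350 and 2491 FPKM at Stage C, a ratio of 135000 with a 95% counting interval from 46200 to 654000 (adjusted p = 1.37e-07). All these unigenes remained within the range of the coloured bud or above it at anthesis.

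The unigenes lost between the green and the coloured bud included proteins of bulb and seed defence. A mannose-specific lectin of the snowdrop type (Cluster-20417.237010), a sugar-binding storage and defence protein, had 0.12, 0 and 0 FPKM in the Stage C flowers, against 518, 697 and 618 FPKM in the Stage B flowers. This is 3 counts against 37635, and Stage B exceeded Stage C by a ratio of 6980 (95% counting interval 2390 to 33900). A second lectin match (Cluster-20417.223226) fell by 9.99 ± 0.57 on the log2 scale (SE; adjusted p = 2.45e-07). The ribosome-inactivating protein charybdin (Cluster-20417.135388), first described in the related sea squill, was at 0 in the Stage C flowers and at 37.1, 54.9 and 41.2 FPKM in the Stage B flowers, at least 598-fold lower at Stage C. The Bowman-Birk proteinase inhibitor A4 (Cluster-20417.139935), whose Swiss-Prot entry is from hyacinth itself, was likewise at 0 at Stage C, against 12.6, 40.9 and 6.75 FPKM at Stage B, at least 219-fold lower. Neither charybdin nor the inhibitor had a count at Stage A.

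The pathway to anthocyanin was described step by step, with levels summed over the unigenes that matched each enzyme. The division into steps, and the unigenes named as the most abundant of a step, were chosen after their values had been seen. Of the 100 tested unigenes of the phenylpropanoid entry, which turns phenylalanine into coumaroyl-CoA, 50 were higher and 16 lower at Stage C than at Stage B (median log2 fold change 1.11, 18 to 48 and 5 to 8 with a replicate number left out), whereas with library totals 29 were higher and 26 lower. Phenylalanine ammonia-lyase, the first enzyme, summed to 1179, 1088 and 3475 FPKM at Stage B, 1246, 4266 and 4798 FPKM at Stage C and 4019, 5494 and 6189 FPKM at Stage A. Of its 35 unigenes 16 were higher and 1 lower at Stage C than at Stage B, but 7 and 7 with library totals, and the flowers of the 2 stages overlapped in their sums. Cinnamate 4-hydroxylase had sums of 145 to 216 FPKM at Stage C and 189 to 248 FPKM at Stage B, which overlapped, and 5 of its 14 unigenes were higher and 1 lower at colouring (4 and 3 with library totals). The highest values for 4-coumarate-CoA ligase came from unigenes that matched ligase-like proteins of less certain substrate. 4-coumarate-CoA ligase-like 7 (Cluster-20417.251720) had 7.21, 11.3 and 7.96 FPKM at Stage B, 109, 1624 and 1420 FPKM at Stage C and 2651, 2562 and 2700 FPKM at Stage A, and rose by 7.73 ± 0.88 (log2, SE; adjusted p = 6.81e-05) at colouring. Its later difference of 1.57 did not pass the test (adjusted p = 0.138) with all flowers and did without Stage C flower 1 (1.04, adjusted p = 0.0106).

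The steps from chalcone synthase to flavanone 3-hydroxylase, which build the flavonoid skeleton, did not move together. Chalcone synthase summed to 4303, 4335 and 4972 FPKM at Stage B, 2714, 1291 and 1914 FPKM at Stage C and 537, 1576 and 1689 FPKM at Stage A. It was thus already abundant in the green bud, and 3 of its 25 unigenes were higher and 6 lower at Stage C (2 and 13 with library totals). The background at this step was 17.5% higher and 17.9% lower. Chalcone isomerase summed to 2865, 2548 and 3206 FPKM at Stage B, 3967, 2137 and 2501 FPKM at Stage C and 650, 1750 and 1443 FPKM at Stage A. Of its 6 tested unigenes 1 was higher and 1 lower at colouring, near that background. Flavanone 3-hydroxylase was different from both. Its sum was 56.2, 52.5 and 87.2 FPKM in the green buds, 5570, 7011 and 7701 FPKM in the coloured buds and 6280, 13840 and 11100 FPKM at anthesis, and 7 of its 10 unigenes were higher and 1 lower at Stage C. Its most abundant unigene (Cluster-20417.239532) had 9.71, 13.5 and 28 FPKM at Stage B, 1981, 2662 and 3000 FPKM at Stage C and 2193, 5090 and 3992 FPKM at Stage A. It rose by 8.0 ± 0.57 (adjusted p = 3.98e-06) from green to coloured bud, and the difference of 0.70 at Stage A against Stage C did not pass the test (adjusted p = 0.296).

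All 6 tested unigenes matching flavonoid 3',5'-hydroxylase rose at colouring, but most of their level was also counted as flavonoid 3'-hydroxylase. They summed to 82.2, 75.9 and 140 FPKM at Stage B, 2340, 1317 and 1770 FPKM at Stage C and 320, 1841 and 906 FPKM at Stage A. The most abundant, a match of CYP75B138 of montbretia (Cluster-20417.235380), had 18.7, 16.6 and 54.3 FPKM in the green buds, 1001, 584 and 781 FPKM in the coloured buds and 93.1, 838 and 365 FPKM at anthesis, a rise of 5.49 ± 0.79 (adjusted p = 0.000315) at Stage C against Stage B. Anthesis flower 1 was far below the other 2 for this gene, and the difference of -0.73 at Stage A against Stage C did not pass the test (adjusted p = 0.495). A match of the 3'-hydroxylase CYP75B137 (Cluster-20417.227458), an enzyme that adds only 1 of the 2 hydroxyl groups, went the other way and was low throughout, with 0.0567, 0.12 and 0.12 FPKM at Stage C against 5.47, 5.85 and 6.02 FPKM at Stage B (-5.06 ± 0.45, adjusted p = 5.32e-06). The whole group matched to flavonoid 3'-hydroxylase nevertheless summed to 187, 218 and 246 FPKM at Stage B and 2261, 1237 and 1690 FPKM at Stage C. At Stage A it summed to 229, 1770 and 813 FPKM. Of its 30 tested unigenes 4 were higher and 6 lower at colouring. This group and the 3',5'-hydroxylase group shared unigenes, so their sums are not separate measures of the 2 enzymes. The list of B-ring hydroxylases summed to 2412, 1351 and 1804 FPKM at Stage C, little above either group alone. Most of the rise was thus counted under both names and cannot be given to 1 enzyme. Among all 32 B-ring hydroxylase unigenes tested 6 were higher and 6 lower at Stage C (6 and 15 with library totals). With TMM these shares, like those of the 30 unigenes above, lay near the background of 17.5% higher and 17.9% lower.

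The late steps rose in the coloured bud and varied widely at anthesis. Of the 44 tested unigenes from dihydroflavonol reductase to the anthocyanidin glucoside, 22 were higher and 7 lower at Stage C than at Stage B (20 and 12 with library totals). Dihydroflavonol 4-reductase summed to 126, 132 and 173 FPKM at Stage B, 2177, 583 and 899 FPKM at Stage C and 133, 559 and 297 FPKM at Stage A. Anthocyanidin synthase, which forms the coloured aglycone, summed to 77, 72.4 and 231 FPKM at Stage B, 4128, 2043 and 2626 FPKM at Stage C and 492, 3753 and 1606 FPKM at Stage A. For both enzymes the 3 coloured buds lay above the 3 green buds, and Stage C flower 1 was the highest of them. The leading anthocyanidin synthase unigene (Cluster-20417.239592) rose by 5.63 ± 0.72 (adjusted p = 0.000149). Anthocyanidin 3-O-glucosyltransferases, which make the pigment stable and soluble, summed to 477, 495 and 819 FPKM at Stage B, 7267, 3318 and 5115 FPKM at Stage C and 497, 2360 and 1389 FPKM at Stage A. Of 23 unigenes 15 were higher and 3 lower at colouring, and 3 were higher and 8 lower at Stage A than at Stage C. Of all 44 late unigenes 8 were lower at Stage A than at Stage C, but 4 without Stage C flower 1, and 1, 10 and 1 when the flowers numbered 1, 2 or 3 were left out of every stage.

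Acyl- and malonyltransferases, which attach acids to the sugars of anthocyanins, followed the same course. In sum they had 293, 208 and 452 FPKM at Stage B, 5246, 1970 and 3340 FPKM at Stage C and 160, 2030 and 695 FPKM at Stage A, and 6 of 7 tested unigenes were higher at colouring. A match of the malonyltransferase acting on anthocyanin 5-O-glucosides of scarlet sage (Cluster-20417.236002) had 27.2, 18.3 and 72.8 FPKM in the green buds, 1071, 539 and 790 FPKM in the coloured buds and 33.9, 549 and 145 FPKM at anthesis, with a rise of 5.15 ± 0.92 (adjusted p = 0.00124). At anthesis 1 flower had kept the level of the coloured bud and the other 2 had not, and the difference of -1.57 did not pass the test (adjusted p = 0.209).

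A further set of glycosyltransferases was highest at anthesis. Of the 9 tested unigenes of the flavonol and flavone branch 0 were higher and 2 lower at Stage C than at Stage B, and 7 were higher and 0 lower at Stage A than at Stage C (median log2 fold change 2.99, 5 to 7 with a replicate number left out). Flavonol 3-O-glucosyltransferase matches summed to 62.5, 53.3 and 54.6 FPKM at Stage B, 15.6, 19.9 and 24.3 FPKM at Stage C and 401, 215 and 147 FPKM at Stage A. The whole branch list had the same sums, and 0 unigenes matched flavonol synthase by the words searched. The counts and sums of this branch are therefore 1 result, on glucosyltransferases and not on flavonol formation. The leading unigene, a match of UGT89B1 (Cluster-20417.261043), had 157, 79.1 and 53 FPKM at Stage A against 0.993, 3.17 and 2.41 FPKM at Stage C (5.63 ± 0.55, adjusted p = 0.000245). A match of UGT75C1 of tomato (Cluster-20417.339468) had 203, 135 and 62.1 FPKM at Stage A and 0 in the 3 coloured buds, at least 4730-fold higher at Stage A (adjusted p = 5.11e-05). An anthocyanidin 5,3-O-glucosyltransferase match (Cluster-20417.264364) had 100, 42.8 and 18.7 FPKM at Stage A, against 1.66, 1.59 and 1.99 FPKM at Stage C (5.15 ± 0.69, adjusted p = 0.00134). In each of these 3 genes anthesis flower 1 was the highest, whereas for the anthocyanin steps above it was the lowest.

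**Figure D2:**
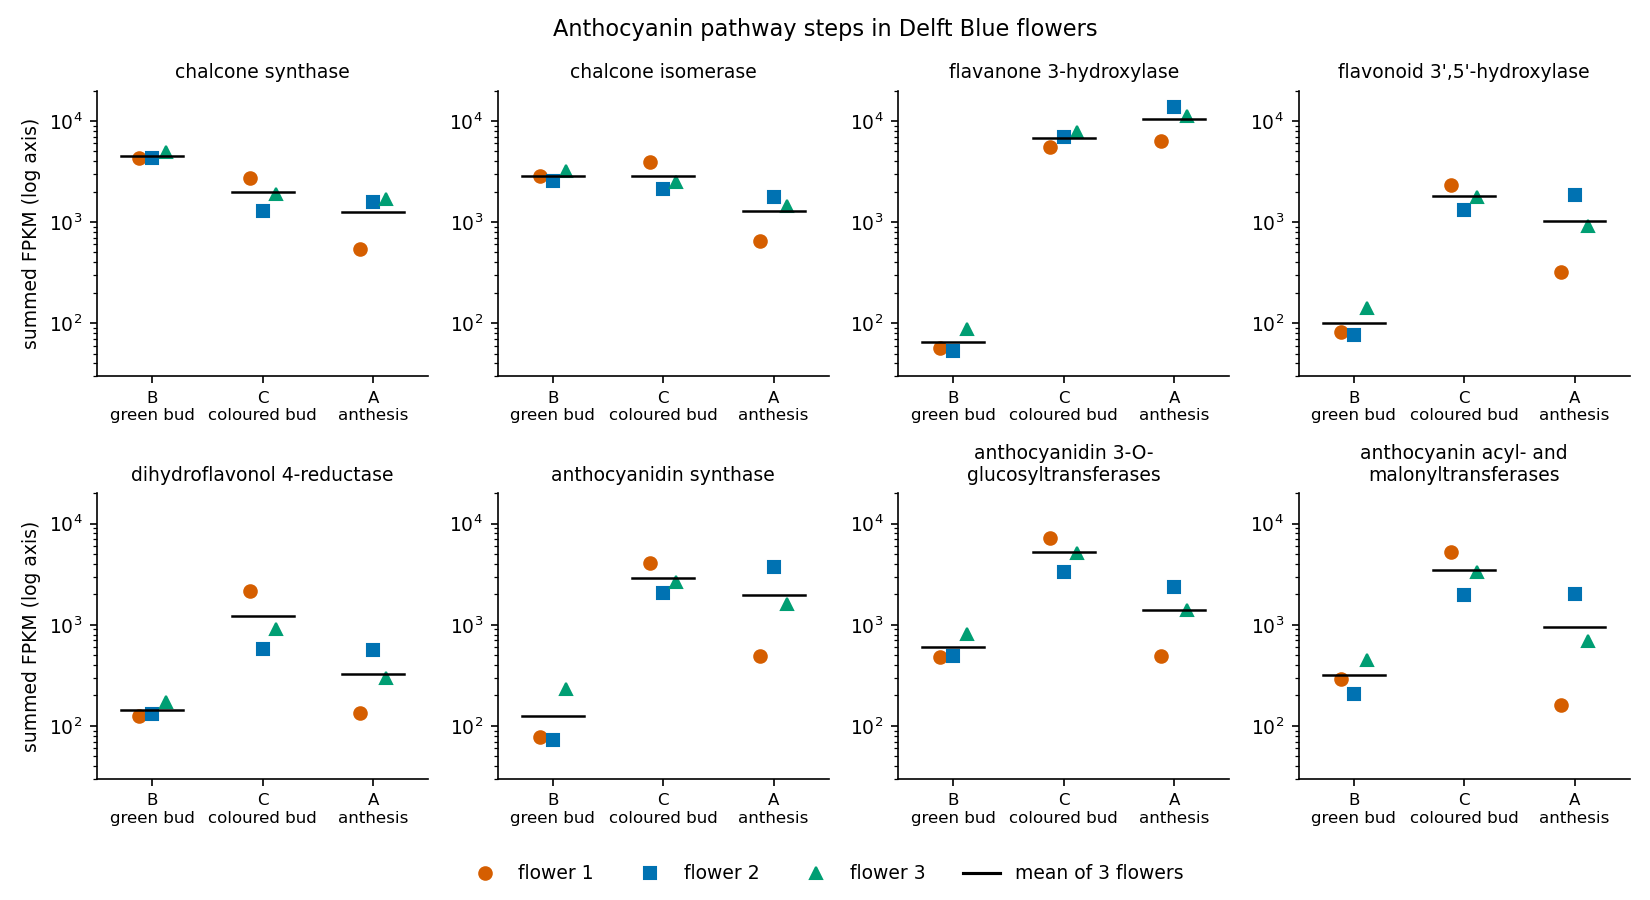
Summed FPKM of the unigenes matching 8 steps of pigment synthesis in each 'Delft Blue' flower at Stages B, C and A (log axis). Points are single flowers and bars are the mean of 3 flowers. The chalcone synthase sums of the 3 green buds lie above those of the 3 coloured buds. From flavanone 3-hydroxylase to the acyl- and malonyltransferases every coloured bud lies above every green bud. The anthocyanidin 3-O-glucosyltransferases lie highest in the coloured buds.

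Regulators of the anthocyanin type rose with these steps. R2R3 MYB factors of the MYB113 and MYB114 type switch on late anthocyanin genes in Arabidopsis. Their unigenes summed to 16.7, 21.3 and 30.7 FPKM at Stage B, 672, 513 and 629 FPKM at Stage C and 141, 284 and 303 FPKM at Stage A. All 8 tested unigenes were higher at Stage C than at Stage B, and 5 of them were lower at Stage A than at Stage C (3 without Stage C flower 1). The most abundant match of MYB114 (Cluster-20417.247286) rose by 5.08 ± 0.53 (adjusted p = 4.12e-05), and that of MYB113 (Cluster-20417.182475) by 5.72 ± 0.35 (adjusted p = 1.81e-06). Both were named after their values had been seen. The bHLH partners of such MYB factors (TT8, GLABRA 3 and EGL1 types) summed to 22, 17.4 and 15.9 FPKM at Stage C against 31.2, 27.2 and 17.5 FPKM at Stage B, with 1 of 3 unigenes higher and 0 with library totals.

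Most of the photosynthetic genes fell sharply at colouring. Of the 157 tested unigenes for light harvesting and photosystems, 6 were higher and 121 lower at Stage C than at Stage B (77.1% lower, against 17.9% of all unigenes), with a median log2 fold change of -3.13, and with a replicate number left out 100 to 103 were lower. Chlorophyll a-b binding proteins, which carry the antenna chlorophyll, summed to 64580, 97320 and 72750 FPKM at Stage B, 3823, 2067 and 1262 FPKM at Stage C and 1089, 1181 and 1372 FPKM at Stage A. The most abundant unigene, a match of chlorophyll a-b binding protein 40 (Cluster-20417.239876), had 184, 95.5 and 14.7 FPKM at Stage C, against 16520, 27540 and 17190 FPKM at Stage B (-6.69 ± 0.74, adjusted p = 5.93e-05). The green and coloured buds were far from overlapping. The small chain of RuBisCO, the carbon-fixing enzyme, summed to 547, 427 and 174 FPKM at Stage C and 19060, 14450 and 14370 FPKM at Stage B, and all 8 tested unigenes fell. Protochlorophyllide reductase, the light-dependent step of chlorophyll synthesis, summed to 3503, 3693 and 3703 FPKM at Stage B, 74.5, 145 and 84.5 FPKM at Stage C and 67.2, 102 and 104 FPKM at Stage A. Its leading unigene (Cluster-20417.237869) fell by 4.50 ± 0.32 on the log2 scale (adjusted p = 3.71e-06), and of 52 chlorophyll synthesis unigenes 1 was higher and 31 lower at Stage C.

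Chlorophyll breakdown genes moved the opposite way. Of 35 tested unigenes 23 were higher and 1 lower at Stage C than at Stage B (65.7% higher, against 17.5% of all unigenes). STAY-GREEN, the magnesium dechelatase that starts the dismantling of chlorophyll a, accounted for most of the level at Stages C and A but for little of it at Stage B, with sums of 3.49, 8.09 and 4.80 FPKM at Stage B, 1029, 6960 and 6309 FPKM at Stage C and 6829, 5469 and 6646 FPKM at Stage A. All 11 tested unigenes were higher at Stage C. The leading one (Cluster-20417.202553) had 0, 0.807 and 0 FPKM in the green buds, 189, 2240 and 2100 FPKM in the coloured buds and 2449, 1898 and 2412 FPKM at anthesis (12.94 ± 1.23 at Stage C against Stage B, adjusted p = 1.96e-05), and Stage C flower 1 was again between the 2 stages. The enzymes downstream changed less. Pheophytinase, which removes the phytol tail, summed to 174, 305 and 264 FPKM at Stage C against 81.9, 77.4 and 111 FPKM at Stage B, with 3 of 7 unigenes higher. Pheophorbide a oxygenase, which opens the ring, summed to 35.3, 39.6 and 32.9 FPKM at Stage B, 91.7, 120 and 110 FPKM at Stage C and 243, 149 and 167 FPKM at Stage A, with 4 of 6 unigenes higher at colouring and 3 of 6 higher again at anthesis.

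The loss of photosynthetic transcripts was larger in the lobes than in the tube. The test asked whether the change between 2 stages in the tube differed from the change in the lobes of the same flowers, with the flower as a block. At Stage C against Stage B 2517 unigenes changed more positively and 1115 more negatively in the tube than in the lobes, 3.39% of the 107247 tested (2.35% and 1.04%). Of 152 tested light harvesting unigenes 66 changed more positively in the tube (31 to 73 with a replicate number left out) and 0 more negatively, with a median difference of 1.44 on the log2 scale. In sum these unigenes had means of 3019, 4462 and 3604 FPKM in tube, outer lobes and inner lobes at Stage C, against 43910, 155900 and 121600 FPKM at Stage B. The tube thus started lower and ended at a similar level in the coloured bud. At Stage A against Stage C a further 19 light harvesting unigenes changed more positively in the tube, among 436 unigenes called in this comparison (0.407%), and the sums were 2524, 1368 and 1239 FPKM in tube, outer lobes and inner lobes at Stage A. Of the 50 tested chlorophyll synthesis unigenes 13 changed more positively in the tube at colouring (5 to 14 with a replicate number left out). Chlorophyll a-b binding protein 25 (Cluster-20417.238670) had means of 36.3, 14.5 and 9.99 FPKM in tube, outer lobes and inner lobes at Stage A, against 36.2, 107 and 99.5 FPKM at Stage C, a difference of 2.90 ± 0.29 between tube and lobes (adjusted p = 2.66e-06).

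**Figure D3:**
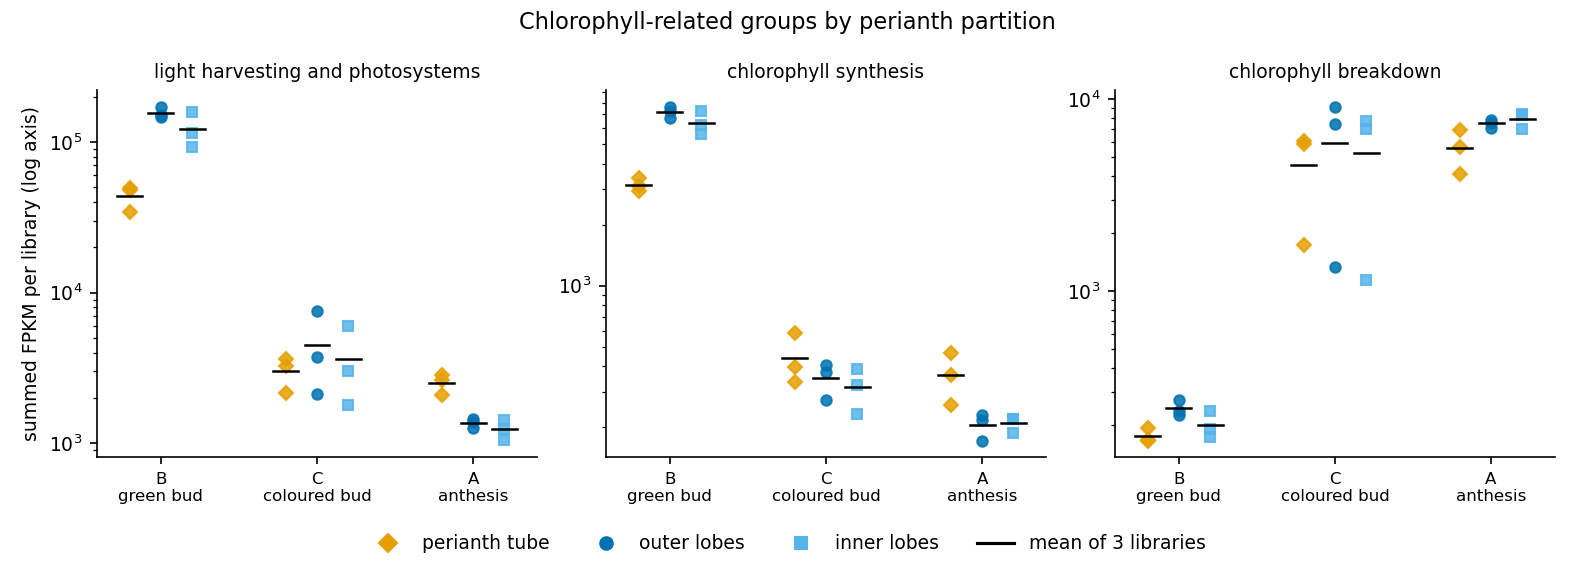
Summed FPKM of the unigenes for light harvesting, chlorophyll synthesis and chlorophyll breakdown in the tube, outer lobes and inner lobes of 'Delft Blue' at Stages B, C and A (log axis). Points are single libraries and bars are the mean of 3 libraries. The tube lies below the lobes for light harvesting and chlorophyll synthesis at Stage B and above them at Stage A.

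Terpene synthases and phenylacetaldehyde synthase were low in the green bud and abundant afterwards. Of 38 tested terpene synthase unigenes 25 were higher and 1 lower at Stage C than at Stage B (65.8% higher, median log2 fold change 7.61). At Stage A against Stage C 4 were higher with all flowers and 14 without Stage C flower 1. A monoterpene synthase match (Cluster-20417.193098) had 4.29, 5.91 and 5.19 FPKM at Stage B, 583, 4315 and 4210 FPKM at Stage C and 7025, 5674 and 8022 FPKM at Stage A (10.02 ± 0.80 at Stage C against Stage B, adjusted p = 7.76e-06). A match of myrcene synthase (Cluster-20417.191262), which makes a simple monoterpene, had 0.63, 2.25 and 1.07 FPKM at Stage B, 383, 3175 and 3090 FPKM at Stage C and 6781, 4195 and 6678 FPKM at Stage A (11.49 ± 0.98, adjusted p = 1.1e-05). In both genes Stage C flower 1 was far below the other coloured buds. Matches of alpha-terpineol synthase (Cluster-20417.131717 and Cluster-20417.131718) had no count in the green buds and were at least 15600-fold and 10800-fold higher at Stage C (adjusted p = 0.000598 and 0.000868).

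Some unigenes of the benzenoid scent list were already present in the green bud. There the whole list summed to 1225, 1177 and 1252 FPKM, against 17400, 42200 and 42990 FPKM in the coloured bud. Matches of the resveratrol O-methyltransferase, whose role in scent is not known from these data, alone summed to 613, 627 and 604 FPKM in the green buds. Of 70 tested unigenes 37 were higher and 6 lower at Stage C than at Stage B (35 and 17 with library totals), and 7 were higher and 5 lower at Stage A than at Stage C. Phenylacetaldehyde synthase, which converts phenylalanine in 1 step into the hyacinth-scented phenylacetaldehyde, summed to 12, 12.6 and 65.9 FPKM at Stage B, 23.8, 6735 and 6127 FPKM at Stage C and 21630, 20990 and 26340 FPKM at Stage A. Its leading unigene (Cluster-20417.331823) had 0.177, 0.253 and 0.417 FPKM in the green buds, 4.85, 3149 and 2651 FPKM in the coloured buds and 8994, 9277 and 12150 FPKM at anthesis. It rose by 13.57 ± 1.97 (adjusted p = 0.000348) at colouring, and the difference of 2.56 at Stage A against Stage C did not pass the test with all flowers (adjusted p = 0.189) but did without Stage C flower 1 (1.98, adjusted p = 0.00286). The O-methyltransferase with the best match to the resveratrol enzyme of grapevine (Cluster-20417.134018) had 1.57, 0.867 and 3.67 FPKM at Stage B, 1297, 7324 and 7598 FPKM at Stage C and 5539, 7234 and 6906 FPKM at Stage A (12.29 ± 0.84, adjusted p = 3.21e-06). Its substrate in hyacinth is not known from these data. Benzyl alcohol O-benzoyltransferase (Cluster-20417.325003), which makes benzyl benzoate, had 247, 295 and 269 FPKM at Stage C, against 5.87, 8.98 and 13.2 FPKM at Stage B (5.63 ± 0.31, adjusted p = 1.05e-06), and here Stage C flower 1 lay with its group. Eugenol and isoeugenol synthases summed to 209, 134 and 149 FPKM at Stage B, 5319, 2671 and 3133 FPKM at Stage C and 1514, 1982 and 1427 FPKM at Stage A, with 2 of 6 unigenes higher at colouring.

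EOBII, a MYB factor that activates benzenoid genes in petunia, rose with little spread between flowers. Its 3 unigenes summed to 4.47, 5.54 and 4.36 FPKM at Stage B, 520, 687 and 687 FPKM at Stage C and 796, 845 and 845 FPKM at Stage A. A first match (Cluster-20417.225060) rose by 8.47 ± 0.27 (adjusted p = 7.27e-08) and another (Cluster-20417.233914) by 8.37 ± 0.23 (adjusted p = 4.67e-08). In Stage C flower 1 EOBII was near the level of the other coloured buds, in contrast to phenylacetaldehyde synthase.

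**Figure D4:**
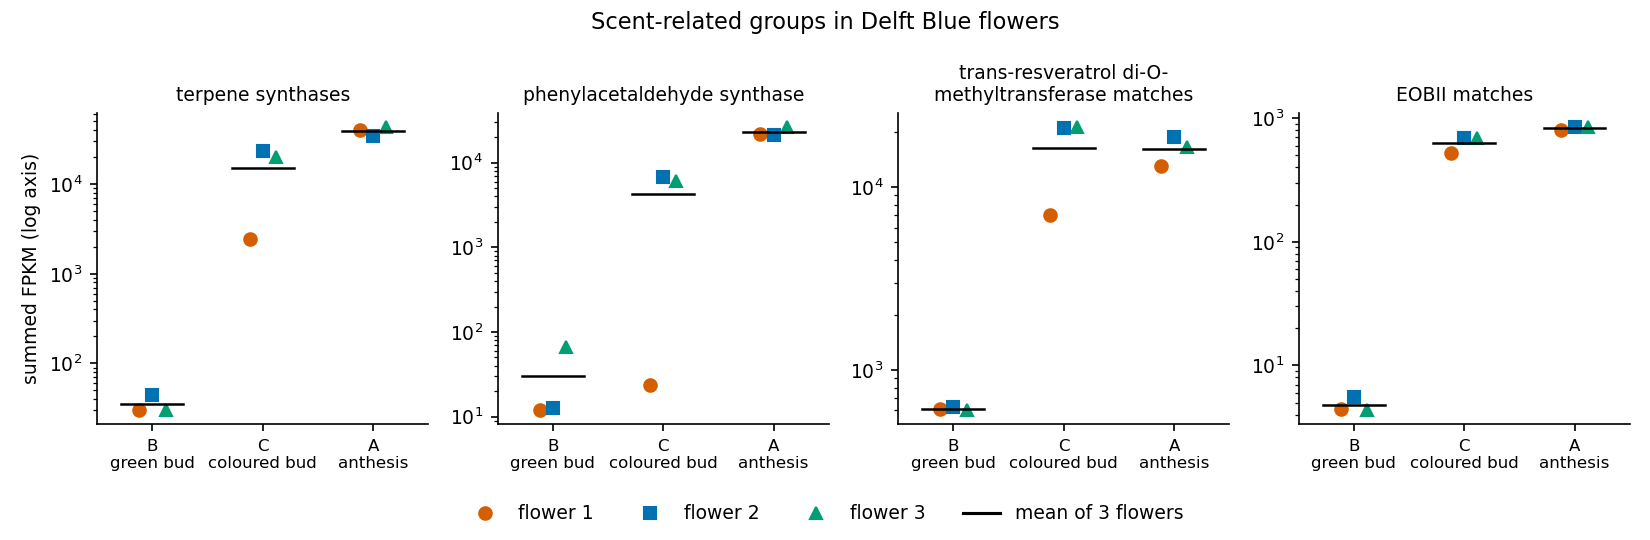
Summed FPKM of 4 scent gene groups in each 'Delft Blue' flower at Stages B, C and A (log axis): terpene synthases, phenylacetaldehyde synthase, matches of trans-resveratrol di-O-methyltransferase and matches of EOBII. Points are single flowers and bars are the mean of 3 flowers. Stage C flower 1 lies near the green buds for phenylacetaldehyde synthase and with the other coloured buds for EOBII.

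More of the cell division genes fell than rose at colouring. Of 148 tested cell division unigenes 11 were higher and 65 lower at Stage C than at Stage B (43.9% lower, median log2 fold change -0.96, 30 to 42 lower with a replicate number left out). The MCM proteins, which license DNA replication, summed to 223, 172 and 224 FPKM at Stage B, 26.9, 23.6 and 23.5 FPKM at Stage C and 37.5, 31.2 and 41.2 FPKM at Stage A, and 24 of 38 unigenes were lower and 2 higher at colouring. A match of the mitotic kinase CDKB2-1 (Cluster-20417.311078) had 0.0567, 0 and 0.0567 FPKM at Stage C, against 6.92, 3.47 and 9.66 FPKM at Stage B, where it was higher by a ratio of 96 (95% counting interval 26 to 800). Not every member fell. CDKB1-1 (Cluster-20417.191347), another mitotic kinase match, had 12.4, 22.8 and 16.3 FPKM at Stage C, against 1.09, 0.923 and 0.58 FPKM at Stage B (5.13 ± 0.40, adjusted p = 6.33e-06).

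Among wall-loosening genes more unigenes rose than fell at colouring with TMM, and more fell than rose at anthesis. Of 163 tested expansin and xyloglucan enzyme unigenes 53 were higher and 23 lower at Stage C than at Stage B (45 and 44 with library totals). At Stage A against Stage C 9 were higher and 26 lower. Of all unigenes 17.5% were higher and 17.9% lower at colouring, and 5.73% and 5.69% at anthesis. Expansin-A8 (Cluster-20417.237543), which loosens walls under acid conditions, had 17.4, 16.1 and 12.7 FPKM in the green buds, 865, 2208 and 802 FPKM in the coloured buds and 592, 618 and 1023 FPKM at anthesis (7.23 ± 0.48, adjusted p = 2.73e-06). The xyloglucan endotransglucosylase match XTH22 (Cluster-20417.160531), which cuts and rejoins xyloglucan chains, had 1.68, 1.34 and 1.08 FPKM at Stage B, 466, 866 and 1112 FPKM at Stage C and 373, 450 and 325 FPKM at Stage A (9.98 ± 0.45, adjusted p = 3.28e-07). Of the 390 tested pectin enzyme unigenes 129 were higher and 50 lower at Stage C (105 and 123 with library totals). At Stage A against Stage C 26 were higher and 81 lower (24 to 57 lower with a replicate number left out, 54 without Stage C flower 1). Pectate lyase 8 (Cluster-20417.235694), which cleaves pectin, had 106, 114 and 119 FPKM at Stage B, 1642, 1994 and 1549 FPKM at Stage C and 577, 819 and 807 FPKM at Stage A. It rose by 4.80 ± 0.21 (adjusted p = 2.53e-07) and then fell by 1.06 (adjusted p = 0.00438, and 0.0641 without the flowers numbered 3). The 2 most abundant members of this list were non-catalytic polygalacturonase subunits, and neither passed the test at colouring. The leading one (Cluster-20417.236697) had 4379, 2725 and 2200 FPKM at Stage C, against 4725, 4464 and 3884 FPKM at Stage B (0.35, adjusted p = 0.255).

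Among water channels and vacuolar pumps more unigenes rose than fell at colouring. Of 93 tested aquaporin unigenes 45 were higher and 10 lower at Stage C (48.4% higher, with 30 and 22 with library totals), and 3 were higher and 19 lower at Stage A than at Stage C. The tonoplast channel TIP1-1 (Cluster-20417.238579) had 2098, 2196 and 2269 FPKM at Stage B, 10880, 8510 and 11260 FPKM at Stage C and 3659, 5394 and 6598 FPKM at Stage A (3.04 ± 0.26, adjusted p = 1.12e-05). The plasma membrane channel PIP1-1 (Cluster-20417.237784) had 542, 768 and 476 FPKM at Stage B, 4363, 5305 and 6436 FPKM at Stage C and 3469, 4211 and 4302 FPKM at Stage A (4.05 ± 0.26, adjusted p = 2.1e-06). For neither channel did the green and coloured buds overlap. In the tube 4 of 90 aquaporin unigenes changed more positively and 15 more negatively than in the lobes at colouring (5 to 14 more negatively with a replicate number left out). Of 186 unigenes of vacuolar pumps and exchangers 103 were higher and 7 lower at Stage C (55.4% higher, with 49 and 23 with library totals). The subunits of the vacuolar H+-ATPase, which acidifies the vacuole, contributed 84 of the higher calls, and their levels barely differed between flowers, with sums of 4641, 4207 and 4172 FPKM at Stage B, 8195, 8724 and 8462 FPKM at Stage C and 8212, 8315 and 8494 FPKM at Stage A. Subunit H (Cluster-20417.236572) rose by 2.58 ± 0.18 (adjusted p = 3.74e-06). The vacuolar pyrophosphatase, the second proton pump, took another course: its sums were 816, 766 and 786 FPKM at Stage B, 780, 425 and 541 FPKM at Stage C and 304, 393 and 298 FPKM at Stage A, with 8 of 34 unigenes higher and 1 lower at colouring with TMM but 0 higher and 5 lower with library totals. Sodium/hydrogen exchangers summed to 195, 162 and 198 FPKM at Stage A against 74.5, 107 and 84.3 FPKM at Stage C, and 8 of 19 were higher and 0 lower.

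Invertases, which split imported sucrose, peaked in the coloured bud. Their unigenes summed to 638, 664 and 535 FPKM at Stage B, 8314, 7751 and 8218 FPKM at Stage C and 2111, 3218 and 2554 FPKM at Stage A. Of 66 tested unigenes 35 were higher and 6 lower at Stage C than at Stage B (21 and 18 with library totals), and 1 was higher and 13 lower at Stage A than at Stage C (9 lower without Stage C flower 1). The cell wall invertase CWINV1 (Cluster-20417.238189) had 74.9, 90.01 and 35 FPKM at Stage B, 2515, 2103 and 2145 FPKM at Stage C and 412, 719 and 496 FPKM at Stage A. It rose by 5.93 ± 0.37 (adjusted p = 1.93e-06) and fell by 1.91 ± 0.31 (adjusted p = 0.00353, and 0.0602 without the flowers numbered 1). A match of beta-fructofuranosidase 1 of maize, also an invertase (Cluster-20417.236920), rose by 8.94 ± 0.48 (adjusted p = 8.21e-07) and fell by 3.16 ± 0.36 (adjusted p = 0.00059). For both genes the 3 stages did not overlap. Over the whole sugar supply list of 203 unigenes 80 were higher and 20 lower at colouring (44 and 53 with library totals, 50 to 65 higher with a replicate number left out). Sucrose synthase, the alternative route of sucrose cleavage, had 13 of 29 unigenes higher and 1 lower with TMM, but 3 and 10 with library totals.

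Among cuticle genes more unigenes rose than fell at colouring with TMM, and more fell than rose at anthesis. Of 448 tested unigenes 138 were higher and 97 lower at Stage C than at Stage B (92 and 178 with library totals). At Stage A against Stage C 21 were higher and 112 lower (24 to 82 lower with a replicate number left out, 59 without Stage C flower 1). The background was 17.5% higher and 17.9% lower at colouring, and 5.73% and 5.69% at anthesis. The lipid-transfer protein 2B (Cluster-20417.239027), of a family that carries lipids to the surface, had 1560, 1277 and 1267 FPKM at Stage B, 17540, 12770 and 13410 FPKM at Stage C and 13180, 11230 and 8672 FPKM at Stage A (4.20 ± 0.32, adjusted p = 5.61e-06). Lipid-transfer protein 2 (Cluster-20417.243233) had 1958, 1990 and 1482 FPKM at Stage B, 10860, 5742 and 6635 FPKM at Stage C and 967, 2388 and 1081 FPKM at Stage A, and fell by 2.21 ± 0.36 at anthesis (adjusted p = 0.00385, and 0.0559 without the flowers numbered 1). The 3-ketoacyl-CoA synthases, which elongate the fatty acids of waxes, had 35 of 96 unigenes higher and 15 lower at colouring, though 24 and 31 with library totals, and 5 higher and 35 lower at anthesis (3 and 23 without Stage C flower 1). A GDSL esterase/lipase match (Cluster-20417.238142) had 0.773, 0 and 1.26 FPKM at Stage C, against 313, 322 and 424 FPKM at Stage B (-8.04 ± 0.44, adjusted p = 1.37e-07). In the tube 49 of 422 cuticle unigenes changed more positively and 13 more negatively than in the lobes at colouring (32 to 36 and 6 to 10 with a replicate number left out).

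Hormone genes moved at different steps. Of 125 tested ethylene unigenes 26 were higher and 17 lower at Stage C than at Stage B (7 and 51 with library totals). With TMM these shares lay near the background of 17.5% higher and 17.9% lower. At Stage A against Stage C, by contrast, 25 were higher and 3 lower (10 to 18 higher with a replicate number left out). ACC oxidase, which makes ethylene from its precursor, summed to 754, 792 and 1269 FPKM at Stage B, 337, 538 and 718 FPKM at Stage C and 2435, 5899 and 1072 FPKM at Stage A. At Stage A its means were 6471, 1081 and 1854 FPKM in tube, outer lobes and inner lobes, against 533, 589 and 471 FPKM at Stage C. The Stage A tubes differed widely, with 6193, 14370 and 2551 FPKM for the whole ethylene list in flowers 1, 2 and 3. A match of ACC oxidase 2 (Cluster-20417.183895) had 952, 2557 and 376 FPKM at Stage A, against 81.7, 119 and 183 FPKM at Stage C (3.54 ± 0.66, adjusted p = 0.00683, but 0.0749 without the flowers numbered 1 and 0.0595 without those numbered 2). The open flowers spread widely, but the lowest of them was still above every coloured bud. ACC synthase, the step before it, summed to 137, 131 and 144 FPKM at Stage A and 51.5, 104 and 96.0 FPKM at Stage C.

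Auxin genes changed at both steps. Of 337 tested unigenes 116 were higher and 38 lower at Stage C than at Stage B, though with library totals 67 were higher and 92 lower, and with a replicate number left out 71 to 107 were higher. At Stage A against Stage C 34 were higher and 36 lower, 35 and 25 without Stage C flower 1, and 10 to 17 and 5 to 22 with a replicate number left out. The list as a whole summed to 3679, 3332 and 3888 FPKM at Stage B, 4149, 9839 and 9843 FPKM at Stage C and 16420, 14030 and 15420 FPKM at Stage A. Unigenes matching YUCCA flavin monooxygenases, which make indole-3-acetic acid in Arabidopsis, summed to 36.4, 38.6 and 35 FPKM at Stage B, 94.2, 5330 and 5432 FPKM at Stage C and 12550, 9722 and 11380 FPKM at Stage A. The leading match of YUCCA10 (Cluster-20417.284292) had 1.84, 1.26 and 3.23 FPKM in the green buds, 15.6, 2071 and 1906 FPKM in the coloured buds and 4759, 3679 and 4209 FPKM at anthesis (10.08 ± 1.50, adjusted p = 0.00042). This is the pattern of phenylacetaldehyde synthase, with Stage C flower 1 close to the green buds. The conjugating enzyme GH3.10 (Cluster-20417.260556) was low and fell at both steps, by 3.90 ± 0.26 (adjusted p = 1.58e-06) and 3.49 ± 0.39 (adjusted p = 0.000383).

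Of 87 tested gibberellin unigenes 18 were higher and 13 lower at colouring (20.7% and 14.9%, near the background of 17.5% and 17.9%, and 15 and 31 with library totals) and 16 higher and 4 lower at anthesis (3 to 8 higher with a replicate number left out). The gibberellin-regulated protein 1 match (Cluster-20417.331523), a small secreted peptide, had 0.0233, 0 and 0 FPKM at Stage B, 27, 460 and 529 FPKM at Stage C and 740, 732 and 572 FPKM at Stage A, a ratio of 72500 at Stage C over Stage B from 2 counts in the green buds (95% counting interval 20100 to 599000). A second such peptide, gibberellin-regulated protein 6 (Cluster-20417.237188), had 24.7, 12.4 and 17.6 FPKM at Stage B, 268, 42.3 and 31.3 FPKM at Stage C and 0.0467, 1.24 and 0.607 FPKM at Stage A. It fell by 7.38 ± 1.04 at anthesis (adjusted p = 0.00175). Gibberellin 20-oxidase 2 (Cluster-20417.171980), of hormone synthesis, was low but peaked in the coloured bud, with 0.243, 0.153 and 0.167 FPKM at Stage B, 8.83, 4.55 and 4.10 FPKM at Stage C and 0.613, 0.373 and 0.30 FPKM at Stage A (5.74 ± 0.40 and -3.58 ± 0.36, adjusted p = 3.54e-06 and 0.000271).

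Among transcription factor families NAC factors rose at anthesis. Of 157 tested NAC unigenes 31 were higher and 29 lower at Stage C than at Stage B (22 and 69 with library totals). With TMM these shares lay near the background of 17.5% higher and 17.9% lower. At Stage A against Stage C 44 were higher and 9 lower (28% higher against 5.73% of all unigenes, 14 to 34 higher with a replicate number left out). NAC83 (Cluster-20417.203345), linked to senescence in Arabidopsis, had 26, 37.0 and 4.05 FPKM at Stage B, 324, 637 and 509 FPKM at Stage C and 1199, 936 and 840 FPKM at Stage A (5.25 ± 0.65, adjusted p = 0.000121), and its later difference of 1.23 did not pass the test (adjusted p = 0.161). NAC21/22 (Cluster-20417.221365) rose at both steps, by 3.51 ± 0.33 (adjusted p = 2.15e-05) and 1.23 ± 0.30 (adjusted p = 0.0242, but 0.0528 without Stage C flower 1). The BEL1-like factor BLH1 (Cluster-20417.235044) had 52.5, 42.8 and 44.2 FPKM at Stage A, against 13.3, 12.2 and 12.9 FPKM at Stage C (2.02 ± 0.20, adjusted p = 0.000289). Of 201 MYB unigenes 54 were higher and 49 lower at colouring (40 and 92 with library totals). At anthesis 8 were higher and 39 lower (5 to 18 lower with a replicate number left out, 18 without Stage C flower 1). Of 169 bHLH unigenes 29 were higher and 46 lower at colouring (17 and 73 with library totals) and 6 higher and 26 lower at anthesis. The share higher at colouring lay near the background of 17.5%. Of 68 MADS-box unigenes 10 were higher and 14 lower at colouring (1 and 22 with library totals), with TMM near the background of 17.5% and 17.9%.

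On the list of autophagy and vacuolar proteases more unigenes rose than fell at both steps with TMM, but not at colouring with library totals. Of 164 tested unigenes 54 were higher and 22 lower at Stage C than at Stage B (22 and 52 with library totals, 32 to 47 higher with a replicate number left out). At Stage A against Stage C 37 were higher and 10 lower (11 to 31 higher with a replicate number left out, 22 without Stage C flower 1). The most abundant members of the list were not proteases but their inhibitors. The cystatin match with the highest level at colouring (Cluster-20417.236217) had 2163, 2154 and 2491 FPKM at Stage C, against 237, 106 and 108 FPKM at Stage B (4.67 ± 0.49, adjusted p = 4.3e-05), while another (Cluster-20417.241268) had 16.6, 13.1 and 11 FPKM at Stage C, against 813, 862 and 850 FPKM at Stage B (-5.02 ± 0.28, adjusted p = 1.19e-06). The 2 inhibitors thus changed places.

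Between coloured bud and anthesis the largest rises were of glycosyltransferases, a resistance-type protein and transposon transcripts. A match of scopoletin glucosyltransferase (Cluster-20417.150362) had 247, 208 and 53.6 FPKM at Stage A, against 0, 0.163 and 0.50 FPKM at Stage C (9.79 ± 1.06, adjusted p = 0.000448). A match of crocetin glucosyltransferase (Cluster-20417.184711) had 458, 290 and 62.3 FPKM at Stage A, against 0.553, 0.58 and 0 FPKM at Stage C (9.76 ± 0.99, adjusted p = 0.000289). Both enzymes belong to the family that adds sugars to small molecules, and anthesis flower 1 was again the highest. The RGA2 match (Cluster-20417.131634), of the nucleotide-binding resistance protein family, had 412, 972 and 289 FPKM at Stage A, against 1.32, 0.277 and 0.61 FPKM at Stage C (9.72 ± 0.75, adjusted p = 6.53e-05). Unigenes matching the tobacco retrotransposon TNT 1-94 summed to 5120, 5943 and 4062 FPKM at Stage B, 1407, 2265 and 2707 FPKM at Stage C and 20870, 21860 and 19960 FPKM at Stage A. Of 984 tested TNT 1-94 unigenes 107 were higher and 223 lower at Stage C than at Stage B, and 186 were higher and 7 lower at Stage A than at Stage C. The 3 open flowers held similar levels, and no unigene of a plant potyvirus passed the count filter, the potyvirus sum reaching at most 4.48 FPKM.

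The named falls at anthesis included surface and wall genes, beside gibberellin-regulated protein 6 described above. The wax enzyme match KCS6 (Cluster-20417.231981) had 0, 0.12 and 0.113 FPKM at Stage A, against 55.2, 3.65 and 7.66 FPKM at Stage C (-7.89 ± 1.27, adjusted p = 0.00276). Peroxidase 42 (Cluster-20417.238202) had 0, 1.44 and 0.633 FPKM at Stage A, against 145, 11 and 16.2 FPKM at Stage C (-6.16 ± 1.12, adjusted p = 0.00613, and 0.0502 without the flowers numbered 3). A smaller fall was that of the MLP-like protein 423 match (Cluster-20417.238440), named for its course in the tube, with 14.2, 23.7 and 6.87 FPKM at Stage A, against 514, 92.1 and 71.9 FPKM at Stage C (-3.71 ± 0.71, adjusted p = 0.00802, and 0.0532 without the flowers numbered 1). In each of these genes Stage C flower 1 was the highest coloured bud and nearer to the green buds, which had 34.9, 18.9 and 75.2 FPKM of KCS6. Fits without Stage C flower 1 alone are not given here for these genes.

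Beyond the photosynthetic genes, the tube and the lobes differed in the course of several named genes. The protease XCP2 (Cluster-20417.238584), which acts in the death of xylem cells in Arabidopsis, had means of 3.34, 0.583 and 0.553 FPKM in tube, outer lobes and inner lobes at Stage C, against 0.41, 111 and 37.1 FPKM at Stage B (9.77 ± 0.50 for the change in the tube minus that in the lobes, adjusted p = 2.59e-14). In the tube alone it was higher at Stage C (3.6, adjusted p = 0.0334), and over whole flowers it was lower (-4.36 ± 1.00, adjusted p = 0.00554). NAC83 was already expressed in the tube of the green bud, with means of 57.1, 5.28 and 4.65 FPKM in tube, outer lobes and inner lobes, and had 380, 546 and 543 FPKM in the coloured bud, so that it rose less in the tube (-4.11 ± 0.32, adjusted p = 2.53e-10). The glycerol-3-phosphate acyltransferase GPAT1 (Cluster-20417.244996), of extracellular lipid synthesis, had 30.4, 3.09 and 3.21 FPKM in tube, outer lobes and inner lobes at Stage C, against 89.5, 111 and 67.9 FPKM at Stage B (3.29 ± 0.21, adjusted p = 1.82e-12). The response regulator ORR41 (Cluster-20417.298901), of cytokinin signalling, had 181, 18.9 and 29.3 FPKM at Stage A, against 106, 162 and 227 FPKM at Stage C (3.57 ± 0.34, adjusted p = 5.25e-07). Expansin-A6 (Cluster-20417.239154) had 68.8, 15.7 and 18.5 FPKM at Stage A, against 51.1, 99.3 and 105 FPKM at Stage C (2.87 ± 0.35, adjusted p = 5.85e-05). Without the flower as a block the number of calls fell to 746 and 183 at Stage C against Stage B and to 2 and 0 at Stage A against Stage C, and with a replicate number left out it ran from 1072 to 2243 and from 341 to 927 at Stage C against Stage B.

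The change at colouring in 'Delft Blue' was then compared with the mean change in the 6 other cultivars. The test was again of the difference in change. At Stage C against Stage B 3283 unigenes changed more positively and 1443 more negatively in 'Delft Blue', 2.34% of the 202252 tested (1.62% and 0.713%), but 1501 and 2582 with library totals and, with a replicate number left out, 1000 to 1358 and 311 to 480. At Stage A against Stage C 51 changed more positively and 18 more negatively (0.0341%, with 0.0252% and 0.0089%), and leaving out the flowers numbered 1, 2 or 3 gave 7 and 0, 25 and 15, and 1 and 0. Leaving out a number removed 1 flower from every stage of every cultivar. Of 533 pectin enzyme unigenes 40 changed more positively and 4 more negatively at colouring in 'Delft Blue', but 5 to 20 changed more positively with a replicate number left out and 19 with library totals. Of 569 cuticle unigenes 44 changed more positively and 6 more negatively, with 16 to 22 and 1 to 2 when a replicate number was left out and 23 and 10 with library totals. Of 234 vacuolar unigenes 20 and 2 were called, but 0 to 15 more positively with a replicate number left out and 4 with library totals, and of 125 aquaporins 13 and 0, but 0 to 10 and 8 more positively in the same alternatives. None of the 151 tested ethylene unigenes was called.

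The 3 unigenes with the smallest p among those with a more positive change all matched inositol-3-phosphate synthase, the first enzyme of inositol synthesis, and may be parts of 1 transcript. The one with the smallest p (Cluster-20417.223724) had 4.86, 4.17 and 3.13 FPKM at Stage B, 155, 313 and 317 FPKM at Stage C and 79.7, 140 and 116 FPKM at Stage A in 'Delft Blue'. In the other cultivars the mean at Stage B was 21.8 to 131 FPKM and that at Stage C 6.20 to 356 FPKM. The 'Delft Blue' coloured bud lay within the range of the others, and its green bud lay below all of them, so that the change differed by 5.41 ± 0.54 (adjusted p = 2.29e-08). The sugar transporter SWEET4 (Cluster-20417.198465) showed the reverse. Its green bud had 48.2, 88.7 and 17.2 FPKM in 'Delft Blue', against means of 3.55 to 7.53 FPKM in the other cultivars, while the coloured bud had 42.6, 88.1 and 87.1 FPKM, against 16.6 to 190 FPKM (-3.20 ± 0.45, adjusted p = 2.65e-05). The RNA-binding protein PEPPER (Cluster-20417.237399) had 46.7, 60.4 and 52.7 FPKM at Stage C against 290, 340 and 251 FPKM at Stage B in 'Delft Blue', and the other cultivars had means of 102 to 174 FPKM at Stage B (-1.07 ± 0.17, adjusted p = 9.02e-05).

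At anthesis the glycosyltransferase match UGT88A1 (Cluster-20417.16284) was among the named unigenes with a more positive change. In 'Delft Blue' it had 39.8, 25.9 and 21.7 FPKM at Stage A and 0.0467, 0.213 and 0.113 FPKM at Stage C. Its mean at Stage A was 40.1 FPKM in 'China Pink', which is a colour sport of 'Delft Blue', 11 FPKM in 'Pink Pearl' and at most 0.476 FPKM in the other 4 cultivars. The difference of 5.61 ± 1.00 from the mean of the others (adjusted p = 0.00929) is thus shared with 'China Pink', and it lost its call without the flowers numbered 1 (adjusted p = 0.576) or 3 (adjusted p = 0.193). The transporter GONST3 (Cluster-20417.156036), which carries sugar nucleotides, had 68.3, 28.7 and 65.5 FPKM at Stage A in 'Delft Blue' and means of 71.9 FPKM in 'China Pink' and 29.5 FPKM in 'Pink Pearl', against 2.11 to 9.55 FPKM in the other 4 (2.79 ± 0.42, adjusted p = 0.000899, but 0.164 and 0.197 without the flowers numbered 1 and 3).

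**Figure D5:**
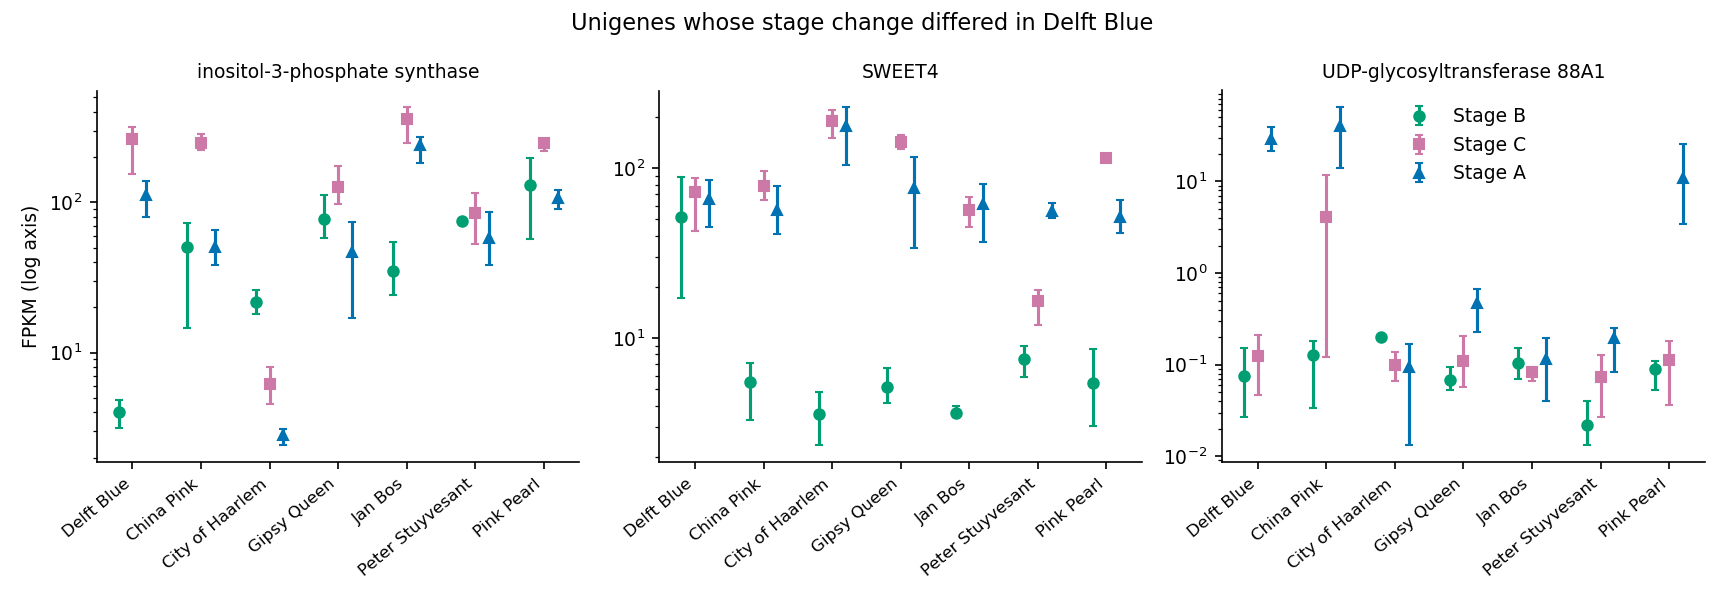
FPKM of 3 unigenes in 'Delft Blue' and the 6 other cultivars at Stages B, C and A (log axis): inositol-3-phosphate synthase, SWEET4 and UGT88A1. Points are the mean of 3 flowers and bars run from the lowest to the highest flower. 'Delft Blue' has the lowest inositol-3-phosphate synthase and the highest SWEET4 at Stage B, and at Stage A it shares a high UGT88A1 with 'China Pink'.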

How the data were processed

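RNA-Seq of perianth tissue (poly-A libraries, paired-end reads) was available for 27 'Delft Blue' libraries, from 3 stages, 3 flowers a stage and 3 partitions a flower. According to the study's methods, the authors assembled the reads with Trinity, clustered transcripts with CORSET, took the longest transcript of each cluster as a unigene (494326 in all), mapped reads with Bowtie and estimated expression with RSEM, whose versions are not given in the sources used here. The deposited tables hold RSEM expected counts per unigene and library, not normalised, and the authors also deposited FPKM values, in which expected counts are scaled to transcript length and library total. Swiss-Prot matches (98561 unigenes) and KEGG orthologues (50546) were taken from the deposited annotation, and no genome coordinates were used.

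Expected counts were rounded to whole numbers per library and summed over the 3 partitions of a flower. Unigenes reaching 10 counts in 3 or more flowers were tested with edgeR 4.0.16 (R 4.3.3; TMM factors, quasi-likelihood F-test, all 3 stages in 1 fit, Benjamini-Hochberg adjustment over all unigenes tested). A call required an adjusted p under 0.05 and a log2 fold change over 1 in size. Tube and lobes were compared as an interaction over libraries with the flower as a block, and 'Delft Blue' with the mean of the other 6 cultivars as an interaction over flowers. The code was tested on simulated counts. For unigenes without counts in a stage, 3 counts over that stage served as the floor of a bound, and ratios from 1 to 3 counts carry a 95% interval that covers counting error only. No molecular identifiers are described for the reads.

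Named unigenes were, for each step, the 6 higher and 6 lower with the largest called change among those matching a named plant protein, with a mean of at least 20 FPKM at the higher stage, no overlap between flowers and 1 unigene per Swiss-Prot entry. Of each list, the 2 most abundant and, among called unigenes with at least 5 FPKM at the higher stage, the 2 with the smallest p were added, and for the interactions the 3 higher and 3 lower with the smallest p. The leading unigenes of single enzyme steps and the steps themselves were chosen after their values had been seen, and all members and lists were chosen with earlier results of these data known. Alternatives covered other size factors, filters, tools (limma 3.58.1, DESeq2 1.42.0), partitions alone and each replicate left out. Library totals in place of TMM and the omission of Stage C flower 1 were added after the data had been seen.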

Additional observations from a re-analysis of the deposited data

Results flagged for a closer look

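The change between 2 stages differed between perianth tube and lobes, by a test of the difference itself, for 3632 unigenes at Stage C against Stage B and for 436 at Stage A against Stage C. At colouring the unigenes named by the smallest p, given as the log2 change in the tube minus that in the lobes, were XCP2 (Cluster-20417.238584, 9.77), GPAT1 (Cluster-20417.244996, 3.29) and the wall-acetylation protein match TBL26 (Cluster-20417.238850, 5.04) on the positive side. On the negative side they were NAC83 (Cluster-20417.203345, -4.11), the small subunit of geranylgeranyl diphosphate synthase, a supplier of terpenoid precursors (Cluster-20417.240780, -4.77), and LURP-one-related 8 (Cluster-20417.244789, -4.47). At anthesis chlorophyll a-b binding protein 25 (Cluster-20417.238670, 2.90), ORR41 (Cluster-20417.298901, 3.57) and expansin-A6 (Cluster-20417.239154, 2.87) changed more positively in the tube. A match of lectin 9 of barrel medic (Cluster-20417.331872, -2.27), MLP-like protein 423 (Cluster-20417.238440, -2.47) and a match of the vesicle-traffic GTPase Rab5 (Cluster-20417.237932, -2.13) changed more negatively.

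The change in 'Delft Blue' differed from the mean change of the 6 other cultivars, again by a test of the difference, for 4726 unigenes at Stage C against Stage B and for 69 at Stage A against Stage C. At colouring the 3 inositol-3-phosphate synthase unigenes (Cluster-20417.223724, 5.41; Cluster-20417.255198, 6.01; Cluster-20417.264616, 4.30) changed more positively, and SWEET4 (Cluster-20417.198465, -3.20), a protein phosphatase 2C match (Cluster-20417.218398, -3.05) and PEPPER (Cluster-20417.237399, -1.07) more negatively, on the log2 scale. At anthesis GONST3 (Cluster-20417.156036, 2.79), the acetylcholinesterase-type GDSL lipase match (Cluster-20417.237763, 2.28) and UGT88A1 (Cluster-20417.16284, 5.61) changed more positively, and beta-glucosidase 44 (Cluster-20417.214197, -3.82) and beta-glucosidase 1 (Cluster-20417.214196, -3.07) more negatively. In 'Delft Blue' the means at Stage A against Stage C were 1.04 against 35.8 FPKM for beta-glucosidase 44, 1.47 against 24.9 FPKM for beta-glucosidase 1 and 253 against 50.8 FPKM for the GDSL lipase. The means of 'China Pink' moved the same way, with 1.19 against 16.2 FPKM, 0.621 against 10.1 FPKM and 367 against 109 FPKM in the same order. Each of the 5 unigenes named at anthesis lost its call without the flowers numbered 1 and without those numbered 3. No cause was tested for any of these differences.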

How the results depend on the processing

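The number of calls moved by over 1.5 times under several alternatives, and the cause was not tested. Counts are given as higher and lower. With library totals, Stage C against Stage B gave 10315 and 50468, Stage A against Stage B 13924 and 59118, and 'Delft Blue' against the other cultivars at Stage C against Stage B 1501 and 2582. With each library as a replicate 12257 were lower at Stage A against Stage C. Without a filter 11259 were higher at Stage A against Stage C, 520 and 480 were called between tube and lobes at the same step, and 869 were lower for 'Delft Blue' against the other cultivars at Stage C against Stage B. Without the flower block tube against lobes gave 746 and 183 at Stage C against Stage B, and 2 and 0 at Stage A against Stage C. From the outer lobes alone the stage comparisons gave 12288 and 12704 (Stage C against B), 4242 and 4301 (A against C), and 17072 and 19752 (A against B). From the tube alone they gave 13018 and 13290, 3429 and 2817, and 16243 and 17615 in the same order. The inner lobes alone gave 4384 and 4351 for Stage A against Stage C.

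With a replicate left out, including Stage C flower 1 alone, counts ran from 12358 to 21748 higher and 7177 to 22043 lower for Stage C against B, from 2133 to 4720 and 1228 to 3639 for A against C, and from 19100 to 28024 and 17466 to 31522 for A against B. Between tube and lobes they ran from 1072 to 2243 and 341 to 927 at Stage C against B, and from 69 to 127 and 67 to 101 at A against C. Against the other cultivars they ran from 1000 to 1358 and 311 to 480 at Stage C against B, and from 1 to 25 and 0 to 15 at A against C. Without Stage C flower 1, Stage A against C gave 4720 and 3639.

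Of the named unigenes called as reported, 99 of 117 kept the call and direction in every alternative at Stage C against B, 21 of 48 at A against C and 115 of 133 at A against B. Fewer did so in the tests of differences in change. Between tube and lobes 11 of 22 kept the call at Stage C against B and 1 of 14 at A against C. Between 'Delft Blue' and the other cultivars 7 of 26 and 0 of 6 did. Of 194 list counts, 80, 115 and 114 moved by over 1.5 times without replicates 1, 2 and 3. The direction reversed for XCP2 and chlorophyll a-b binding protein 25. XCP2 (Cluster-20417.238584) was higher in the tube alone by 3.6 at Stage C against B and by 5.14 at A against B, and the binding protein (Cluster-20417.238670) differed by 0.14 in the tube alone at A against C. Deviations from the stage mean correlated between same-numbered flowers at -0.282 to 0.229. Between Stages B and C these correlations were 0.097, 0.229 and 0.195, against -0.167 to -0.01 for different numbers. Between Stages C and A same-numbered flowers had -0.191, -0.21 and -0.094. Whether the numbers pair the flowers was not tested. A fit with the replicate number as a block gave 21423 and 21062 for Stage C against B, 6271 and 5599 for A against C, and 27425 and 30163 for A against B, and for 'Delft Blue' against the other cultivars 3351 and 1490 at C against B and 55 and 20 at A against C. With 3 flowers a stage the precision of all fold changes is limited, and levels below about 1 FPKM rest on few counts.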
